A study of Mus musculus with 6 samples.

Results

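The interleukin-1 (IL-1) family was examined in RNA-seq read counts of cultured mouse dendritic cells. The 9 genes chosen by name were the ligands Il1a, Il1b and Il18, the soluble inhibitors Il1rn and Il18bp, and the receptor chains Il1r1, Il1r2, Il1rap and Il18rap, out of 54532 genes counted. There were 3 control libraries and 3 libraries of cells treated with DB2313, an inhibitor of the transcription factor Spi1 (PU.1), a master regulator of myeloid cells. The labels give neither dose, duration of treatment, mouse strain nor age. The study states a DB2313 dose for macrophages and a duration for another assay, neither of which is tied to these libraries, and the study spoke of macrophages where the labels named dendritic cells. In the table, the columns read as DB2313 are named after Spi1 and not after DB2313, and every direction below rests on that reading. Nothing stated whether the 3 libraries of a group came from separate cultures, so p-values measure only the spread between these libraries, which may be technical.

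IL-1α and IL-1β are inflammatory cytokines that signal through the receptor Il1r1 together with the accessory chain Il1rap. The receptor antagonist encoded by Il1rn occupies Il1r1 without signalling, and Il1r2 is a decoy that binds IL-1 but lacks a signalling domain. IL-18, which promotes interferon-γ production by T and NK cells, signals through a receptor made of Il18r1 and Il18rap, and Il18bp encodes a secreted protein that neutralises it. IL-1β and IL-18 are made as precursors and are cut by caspase-1 in inflammasomes, so transcript levels do not measure the active cytokines. Dendritic cells and macrophages are major sources of these ligands.

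With DB2313, both IL-1 ligand genes fell, the IL-18 inhibitor gene Il18bp and the signalling receptor gene Il1r1 rose, and the IL-18 receptor gene Il18rap fell. Transcripts of Il1rn and Il18 differed by less than the spread between libraries, and those of Il1r2 and Il1rap did not pass the test. All 9 genes passed the filter on low counts, with 43 to 2396 counts per library. The 9 genes were chosen with earlier results of these data known, so their share of calls is a description and not a test. In edgeR's quasi-likelihood test with Benjamini-Hochberg adjustment over 14174 genes, 5 of the 9 had an adjusted p under 0.05, 2 higher and 3 lower. Over all genes tested, 10.6% (1503) passed in this fit of 6 libraries, 4.66% being higher and 5.94% lower. Without control replicate 1, control replicate 3 or DB2313 replicate 2, 2 of the 9 passed. Over all genes, these fits called 846 of 14493, 854 of 14501 and 739 of 14580. Without control replicate 2, 3 of the 9 passed, beside 796 of 14537 genes. In 6 of the 9 genes the 3 control values were separate from the 3 DB2313 values, which held for 27.4% of all genes. The median log2 fold change of the 9 genes was 0.037, beside 8.2e-04 over all genes.

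Library totals were 16146743 to 16299657 counts for control. With DB2313 they were 16624088, 19764677 and 16310491 counts in replicates 1 to 3, all above the controls. DB2313 replicate 2 was thus the deepest library, and the others were similar. The most distant pair of replicates was DB2313 replicates 1 and 3, with a chi-square of 19.4 per degree of freedom, against at most 5.54 between control libraries. Markers of several cell types were present. Among dendritic cell markers, Itgax, H2-Aa and Ccr7 were at 172, 1790 and 1535 CPM (reads of the gene per 1000000 reads of the TMM-scaled library) in control, while Cd209a was near 0. The summed level of the 18 dendritic cell markers was 14020 to 14400 CPM in control and 11970 to 14080 CPM with DB2313, and 4 of 17 tested were lower and none higher. The sum of the 16 macrophage or monocyte markers was 11170 to 12550 CPM in control and 10150 to 11090 CPM with DB2313 (2 higher and 7 lower of 16). That of the 13 neutrophil markers was 4927 to 5391 and 5302 to 6586 CPM (4 higher and 1 lower of 13). The 12 mast cell or basophil markers summed to 2521 to 2721 CPM in control and 2570 to 3079 CPM with DB2313 (2 higher of 9, with Tpsab1 at 0 in all libraries), and the 14 T or NK cell markers to 289 to 354 and 277 to 409 CPM (none of 13 called by edgeR, 1 at an unadjusted p under 0.05). Single genes weigh heavily on these sums, as Lyz2 (macrophage or monocyte list) averaged 8751 CPM and Cd74 (dendritic cell list) 6557 CPM in control. Unadjusted, the edgeR p was under 0.05 for 10 of 17 dendritic cell and 9 of 16 macrophage or monocyte markers. The same held for 7 of 13 neutrophil and 2 of 9 mast cell or basophil markers, and for 3309 of all 14174 genes tested. Of the 10 dendritic cell markers, Cd80 was higher and the others lower. The part of these cell types in the changes of the IL-1 family was not tested. In such bulk samples, fewer cells of a type and less RNA per cell cannot be told apart.

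**Figure D1:**
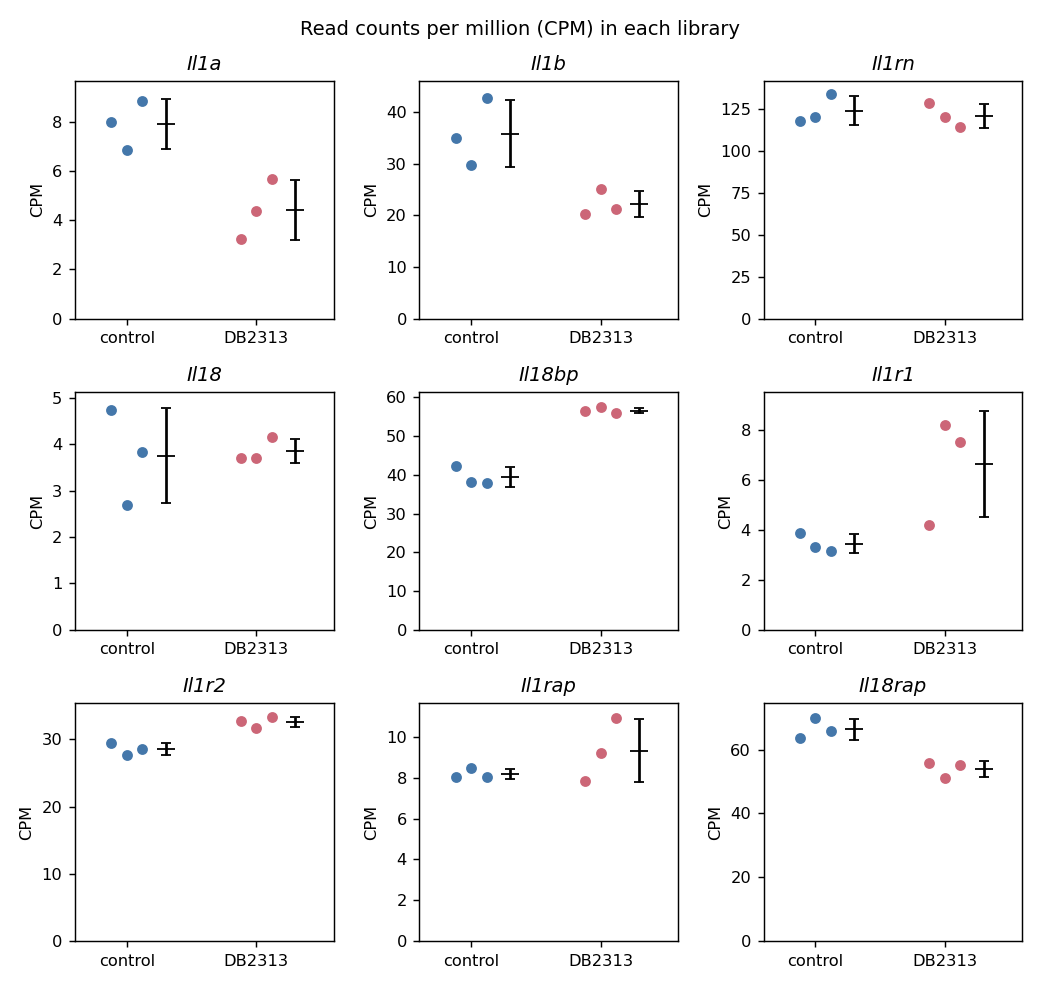
Level of each of the 9 genes in CPM in the 3 control (blue) and 3 DB2313 (red) libraries, with the mean and SD beside the points and every axis starting at 0. The DB2313 points of Il1a and Il1b lie below all control points, those of Il18bp lie between 56.0 and 57.4 CPM, above all control points, and those of Il1r1 are spread from 4.19 to 8.18 CPM.

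Il1a and Il1b lie 54.6 kb apart on the minus strand of chromosome 2 (GRCm38). Il1b (ENSMUSG00000027398, chr2:129364570-129371139) was measured at 34.9, 29.9 and 42.7 CPM in control replicates 1 to 3 and at 20.3, 25.2 and 21.3 CPM in DB2313 replicates 1 to 3. The highest DB2313 library was lower than the lowest control. The log2 fold change was -0.68 ± 0.13 (SE, 95% interval -0.96 to -0.41), a level 0.623 times that of control, with an edgeR adjusted p of 0.0031. It passed in each of the 15 alternatives tried. Il1a (ENSMUSG00000027399, chr2:129299610-129309972) was less abundant, at 7.99, 6.84 and 8.84 CPM in control and 3.22, 4.36 and 5.65 CPM with DB2313. The groups again did not overlap, and DB2313 replicate 1 was the lowest library. Il1a differed by -0.84 ± 0.22 on the log2 scale (SE, 95% interval -1.30 to -0.37), with an edgeR adjusted p of 0.0224. The call was lost without control replicate 1, control replicate 3 or DB2313 replicate 2, where the edgeR adjusted p was 0.083, 0.1 and 0.0828. On the opposite strand, 222 of the 1974 exon bases of Il1a are shared with Gm14023 (2 to 14 counts per library) and 25 of the 1907 of Il1b with Il1bos (7 to 16 counts), and without a stated strand setting the reads there cannot be told apart.

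The regions before these genes are shown because Spi1 binds purine-rich DNA with a GAGGAA core. That core was searched on both strands of the 250 bases before 1 RefSeq start per gene (GRCm38.p6), the listed one nearest to the start in the table, counted from -1 next to that start. RefSeq lists 2 starts for Il1r1 and 3 for Il1rn, and the start used for Il1r2 lies 12014 bp from that in the table. It is present in 23.3% of the 32851 such windows in RefSeq and in 2 of the 9 genes, Il1a and Il18rap. All 9 genes had an entry. Capitals mark a match. Of the 5 genes that passed the test, 4 have no annotated exon in the window and are printed here or with the receptors, 5′ to 3′ along the gene. Il1a holds 1 match at -41 and Il1b holds none. A match is a string of letters and not a measured binding site, and the absence of one says nothing about Spi1.
Il1a (chr2:129309973-129310222, minus strand): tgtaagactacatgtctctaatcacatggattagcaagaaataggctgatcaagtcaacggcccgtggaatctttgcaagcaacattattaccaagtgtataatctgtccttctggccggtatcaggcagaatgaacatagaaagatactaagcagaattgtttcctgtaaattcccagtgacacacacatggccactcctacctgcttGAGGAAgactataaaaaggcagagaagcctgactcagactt
Il1b (chr2:129371140-129371389, minus strand): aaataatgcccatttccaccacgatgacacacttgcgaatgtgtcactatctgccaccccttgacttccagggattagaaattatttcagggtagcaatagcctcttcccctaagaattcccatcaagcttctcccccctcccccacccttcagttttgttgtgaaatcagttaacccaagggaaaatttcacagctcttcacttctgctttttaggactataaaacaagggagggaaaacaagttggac

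Il18 (ENSMUSG00000039217, chr9:50554827-50581840, plus strand), the third ligand, was at 4.73, 2.70 and 3.83 CPM in control and 3.70, 3.71 and 4.15 CPM with DB2313. The DB2313 libraries lay within the range of the controls. It was the least counted of the 9 genes, with 43 to 77 counts per library. The log2 fold change was 0.037 ± 0.25 (SE), with an edgeR adjusted p of 0.955, and its 95% interval reached from 0.706 to 1.49 times the control level. A change within that interval could not be told from none in these libraries. The interval is not the smallest change the test could call, which is larger after the adjustment over all genes. The sign turned without control replicate 2, without DB2313 replicate 3 and with an offset for gene length.

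Il1rn (ENSMUSG00000026981, chr2:24336853-24351494, plus strand), the antagonist, was the most counted of the 9 genes. It was at 118, 120 and 134 CPM in control and at 128, 120 and 114 CPM with DB2313, and the groups overlapped. The difference was -0.035 ± 0.08 on the log2 scale (SE), with an edgeR adjusted p of 0.841 and a 95% interval of 0.870 to 1.10 times the control level. The sign turned without control replicate 3 and without DB2313 replicate 3. Across the 6 libraries, the protein-coding genes of most similar log2 CPM among 12372 were Pmepa1, Prph and Trmt1, with Pearson's r of 0.995, 0.984 and 0.982. They were picked for that value from many genes over only 6 libraries, which share their group and scaling.

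Il18bp (ENSMUSG00000070427, chr7:102014885-102018690, minus strand) had the smallest adjusted p of the 9 genes. It was at 42.3, 38.1 and 37.9 CPM in control and rose to 56.4, 57.4 and 56.0 CPM with DB2313. The coefficient of variation was 6.28% in control and 1.26% with DB2313, each a rough estimate from only 3 libraries. All DB2313 libraries lay above all controls. The log2 fold change was 0.52 ± 0.08 (SE, 95% interval 0.34 to 0.70), a level 1.43 times that of control, with an edgeR adjusted p of 9.0e-04. It passed in each of the 15 alternatives, between 0.50 and 0.57. Il18bp shares 80 of its 3026 exon bases with Numa1 on the opposite strand, a gene with 4338 to 5715 counts per library, so some reads there may belong to either gene.

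**Figure D2:**
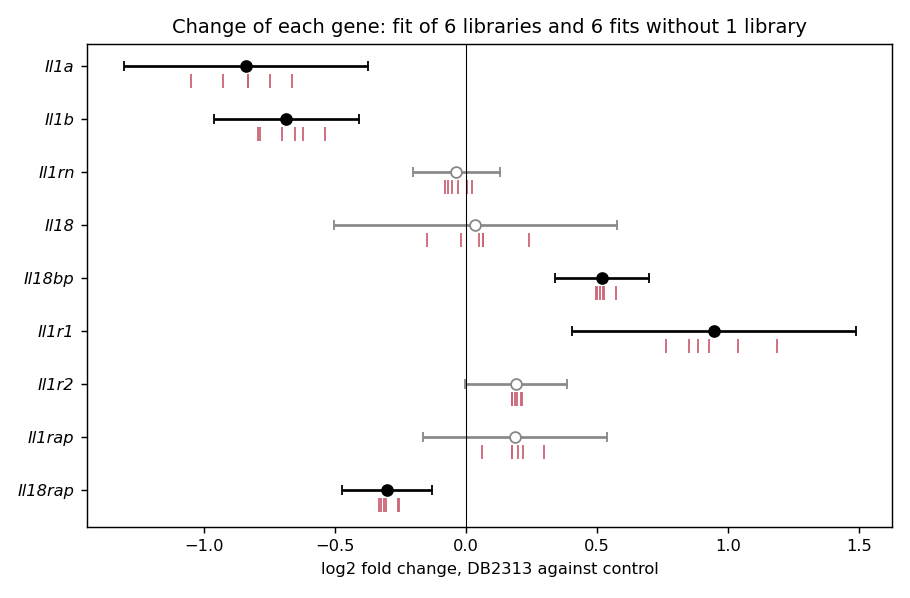
Log2 fold change of DB2313 against control for each of the 9 genes (circles, edgeR fit of 6 libraries) with its 95% interval (bars). Filled circles have an adjusted p under 0.05, and red ticks show the 6 refits, each without 1 library. The ticks of Il1b and Il18bp stay on one side of 0, from -0.79 to -0.54 and from 0.50 to 0.57, while those of Il18 and Il1rn lie on both sides.

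The ratio of antagonist to ligand within a library does not depend on the scaling between libraries. Per Il1b read, the controls had 3.38, 4.01 and 3.13 Il1rn reads and the DB2313 libraries had 6.31, 4.77 and 5.37, in replicate order. All DB2313 ratios were above all control ratios, with means of 3.51 ± 0.455 and 5.48 ± 0.777 (SD, n = 3 each). The log2 difference was 0.64, with a two-sided exact permutation p of 0.1, which is the smallest that 3 against 3 libraries allow. The threshold of 0.05 could thus not be reached by any ratio. The ratio of Il18bp to Il18 was 8.93, 14.1 and 9.92 in control and 15.2, 15.5 and 13.5 with DB2313, and the groups overlapped through control replicate 2 (exact permutation p = 0.2). The ratio of Il1a to Il1b was 0.229, 0.229 and 0.207 in control and 0.158, 0.173 and 0.266 with DB2313 (exact permutation p = 0.4). These groups overlapped, and with its smallest p of 0.1 the test could not decide whether the IL-1 ligands fell unequally. The ratio of the decoy Il1r2 to Il1r1 was 7.59, 8.32 and 9.10 in control and 7.83, 3.88 and 4.43 with DB2313 (exact permutation p = 0.2), where replicate 1 lay in the control range. Adjusted over the 4 ratios, the exact permutation p was 0.267 for the first, second and last of these and 0.4 for Il1a to Il1b.

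**Figure D3:**
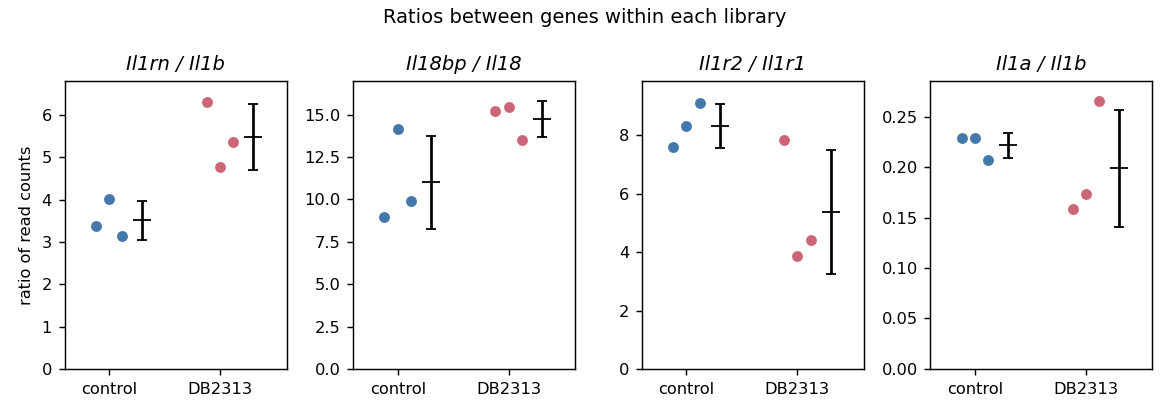
Ratios of read counts between pairs of genes within each control (blue) and DB2313 (red) library, with the mean and SD of 3 libraries beside the points and axes starting at 0. The groups are separate for Il1rn to Il1b, with a highest control ratio of 4.01 and a lowest DB2313 ratio of 4.77, and overlap for the other pairs.

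Il1r1 (ENSMUSG00000026072, chr1:40225080-40317257, plus strand), the signalling receptor, was at 3.87, 3.33 and 3.14 CPM in control and 4.19, 8.18 and 7.51 CPM with DB2313. The groups did not overlap, but DB2313 replicate 1 was close to the controls and the other DB2313 libraries were far above them. The log2 fold change was 0.95 ± 0.25 (SE, 95% interval 0.41 to 1.49), a level 1.93 times that of control, with an edgeR adjusted p of 0.0258. It rested on 50 to 163 counts per library. The call was lost in limma-voom (adjusted p 0.0515) and in edgeR without DB2313 replicate 2 (0.158) or without control replicate 1, 2 or 3 (0.0638, 0.1 and 0.097). Il1r2 (ENSMUSG00000026073, chr1:40074079-40125231, plus strand), the decoy, was at 29.4, 27.7 and 28.5 CPM in control and 32.8, 31.8 and 33.3 CPM with DB2313. The groups did not overlap, yet the log2 fold change of 0.19 ± 0.09 (SE) did not pass, with an edgeR p of 0.0516 and an adjusted p of 0.219. Il1rap (ENSMUSG00000022514, chr16:26581704-26730117, plus strand), the accessory chain, was at 8.05, 8.47 and 8.03 CPM in control and 7.83, 9.23 and 10.9 CPM with DB2313. Its groups overlapped, and the log2 fold change was 0.19 ± 0.16 (SE), with an edgeR adjusted p of 0.548 and a 95% interval of 0.894 to 1.46 times the control level.

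Il18rap (ENSMUSG00000026068, chr1:40515362-40551705, plus strand), the accessory chain of the IL-18 receptor, was at 63.6, 70.1 and 65.8 CPM in control and 55.9, 51.2 and 55.1 CPM with DB2313. The groups were separate, with DB2313 the lower. The log2 fold change was -0.30 ± 0.08 (SE, 95% interval -0.47 to -0.13), a level 0.813 times that of control, with an edgeR adjusted p of 0.0270. It passed in 10 of the 15 alternatives. Among the fits without 1 library, the call was lost without any one of control replicates 1, 2 and 3 (edgeR adjusted p 0.0586, 0.154 and 0.0883) and without DB2313 replicate 2 (0.167). The ligand-binding chain Il18r1, which was not among the 9 genes, fell from 19.2, 18.9 and 20.95 CPM to 11.2, 11.4 and 11.96 CPM, by 0.77 ± 0.12 on the log2 scale (SE, edgeR adjusted p 6.4e-04), and passed in each of the 15 alternatives.

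The windows before Il18rap and Il1r1 are shown for the same core. Il18rap holds 2 matches, the first at -94 and the last at -79. The window of Il1r1 holds none at the start used.
Il18rap (chr1:40515112-40515361, plus strand): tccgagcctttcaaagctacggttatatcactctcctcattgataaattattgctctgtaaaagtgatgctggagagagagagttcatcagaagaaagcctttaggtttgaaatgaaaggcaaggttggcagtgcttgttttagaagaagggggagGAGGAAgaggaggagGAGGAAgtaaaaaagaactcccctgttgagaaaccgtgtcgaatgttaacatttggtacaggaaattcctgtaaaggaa
Il1r1 (chr1:40224830-40225079, plus strand): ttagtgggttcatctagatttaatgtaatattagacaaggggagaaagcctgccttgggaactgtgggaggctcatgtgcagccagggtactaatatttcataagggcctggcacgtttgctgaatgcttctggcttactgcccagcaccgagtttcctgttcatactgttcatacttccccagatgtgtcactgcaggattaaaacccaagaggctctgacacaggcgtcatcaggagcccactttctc

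Of the receptor genes, 3 of the 4 members lie in a cluster of 6 IL-1 receptor family genes that spans 478 kb of the plus strand of chromosome 1, in the order Il1r2, Il1r1, Il1rl2, Il1rl1, Il18r1 and Il18rap. Of the 6 genes, 1 rose and 2 fell, where 4.66% of all genes were higher and 5.94% lower. Among these 3 calls, those of Il1r1 and Il18rap each held in 10 of the 15 alternatives and that of Il18r1 in all 15. Il1r1 (0.95) and Il1rl2 (-0.14 ± 0.12, SE), a subunit of the IL-36 receptor, lie 7.35 kb apart. Il1rl1 (0.068 ± 0.09, SE), the receptor of IL-33, and Il18r1 (-0.77) lie 137 bp apart (0.137 kb), and Il18rap (-0.30) follows 14.5 kb further on (all log2 fold changes). The edgeR adjusted p was 0.563 for Il1rl2 and 0.716 for Il1rl1, above the threshold.

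**Figure D4:**
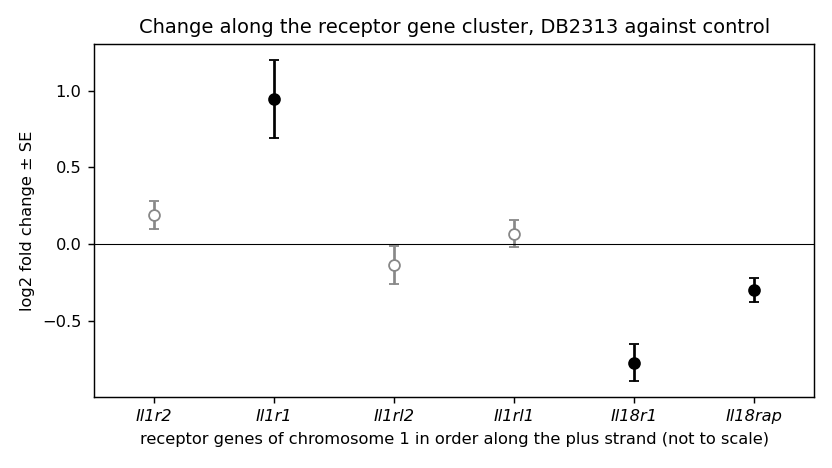
Log2 fold change of DB2313 against control with its SE for the 6 receptor genes of chromosome 1, in their order along the plus strand and not to scale. Filled points have an adjusted p under 0.05. Il1r1 (0.95) lies above 0, Il18r1 (-0.77) and Il18rap (-0.30) lie below it, and the open points lie between -0.14 and 0.19.

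Levels between genes were compared per length, as CPM per kb of the gene length in the table. For Il1a, Il1b, Il18bp and Il1rap that length equals all annotated exon bases, which can exceed the transcript expressed. The order depends on this length. By CPM, Il18rap (66.5 in control) stood above Il1b (35.8), and Il1rap (8.18) above Il1a (7.89). In control the order was Il1rn (22.4 ± 1.56 CPM per kb), Il1b (18.8 ± 3.40), Il1r2 (14.9 ± 0.452), Il18bp (13.0 ± 0.819), Il18rap (9.85 ± 0.489), Il1a (3.998 ± 0.510), Il18 (3.64 ± 0.990), Il1rap (0.720 ± 0.0217) and Il1r1 (0.541 ± 0.0602; SD, n = 3). The libraries of Il1rn and Il1b overlapped in level, as did those of Il1a and Il18, while the other neighbours in the order did not. With DB2313, Il18bp stood second at 18.7 ± 0.236 CPM per kb and Il1b stood in place 4 at 11.7 ± 1.35 CPM per kb, with Il1r2 between them at 17.1 ± 0.413. Il18 (3.74 ± 0.246) was then above Il1a (2.23 ± 0.616), and Il1r1 (1.04 ± 0.336) and Il1rap (0.821 ± 0.137) overlapped. In both groups the decoy Il1r2 was far above the signalling receptor Il1r1 per length. Il1rn, at 21.9 ± 1.29 CPM per kb, stood first in both groups.

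**Figure D5:**
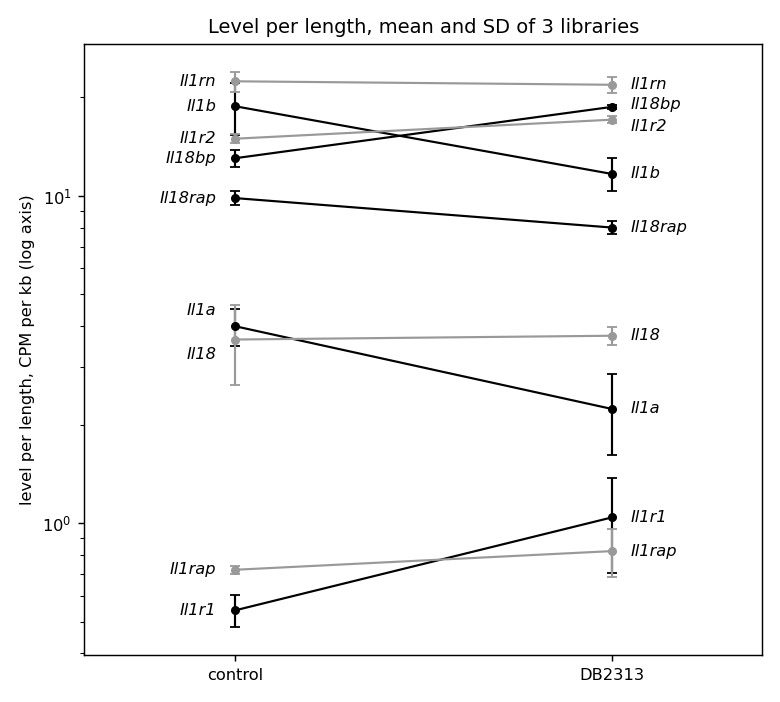
Mean level per length in CPM per kb (log axis) of the 9 genes in 3 control and 3 DB2313 libraries, with SD bars. A line connects both means of a gene, black for an adjusted p under 0.05 and grey otherwise. The lines of Il1b (18.8 to 11.7) and Il18bp (13.0 to 18.7) cross, as do those of Il1r1 and Il1rap at the bottom.

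Other genes of the pathway were taken from 4 lists of 74 genes in all, of which 64 were tested and 10 had too few counts. These lists, too, were chosen with earlier results of these data known. Of the 64, 3 were higher and 5 lower, which is 12.5% against the 10.6% of all genes, with a median log2 fold change of -0.053. Among the other ligands and receptors of the family, 5 of 12 were tested, and Il18r1 was the single gene called. Il1f9, the gene of IL-36γ, averaged 15.1 ± 2.67 CPM in the controls and 16.3 ± 1.15 CPM after DB2313 (SD, n = 3), and Sigirr, which restrains IL-1 receptor signalling, had a log2 fold change of -0.26 ± 0.09 (SE, edgeR adjusted p 0.0935). Il33 was near 0 at 0.146 CPM in control.

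In the list for maturation and release of the cytokines, 5 of 20 genes passed, 3 higher and 2 lower, beside 10.6% of all genes. Nlrp3, the sensor of the inflammasome that activates caspase-1, fell from 67.4, 59.1 and 61.5 CPM to 35.2, 39.8 and 46.4 CPM, by 0.63 ± 0.10 on the log2 scale (SE, edgeR adjusted p 9.6e-04). Mefv, which encodes the inflammasome sensor pyrin, fell by 0.56 ± 0.15 on the log2 scale (SE, edgeR adjusted p 0.0244). The neutrophil proteases Elane (0.69 ± 0.11, SE) and Ctsg (0.33 ± 0.08), which can cut IL-1 family precursors outside cells, rose, with edgeR adjusted p of 5.9e-04 and 0.0190. Elane is also one of the neutrophil markers whose summed level is given above. Txnip, a thioredoxin inhibitor that can bind Nlrp3, rose by 0.31 ± 0.07 on the log2 scale (SE, edgeR adjusted p 0.0119). Casp1, at 69.7 and 74.0 CPM (log2 fold change 0.086 ± 0.07, SE), and the adaptor Pycard, at 110.6 and 110.7 CPM (0.0018 ± 0.08), were not called (edgeR adjusted p 0.548 and 0.993).

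In the list for receptor signalling, 1 of 22 genes passed, Irak2, a kinase downstream of IL-1 and Toll-like receptors, which fell from 72.6 ± 6.22 CPM in control to 55.7 ± 5.86 CPM (SD over 3 libraries), by 0.38 ± 0.09 on the log2 scale (SE, edgeR adjusted p 0.0168). This is 4.55% of the list, beside 10.6% of all genes, and the difference was not tested. Myd88, the adaptor of the receptors, had a log2 fold change of 0.15 ± 0.08 (SE, edgeR adjusted p 0.309). In the list of genes that IL-1 induces in many cells, 1 of 17 tested passed, the chemokine gene Cxcl3 (-0.51 ± 0.15, SE, edgeR adjusted p 0.0425), whose groups overlapped in CPM and whose call was lost with scaling by library totals (edgeR adjusted p 0.0555). The calls of Nlrp3 and Elane held in each of the 15 alternatives. Without DB2313 replicate 2, those of Txnip, Ctsg, Mefv, Irak2 and Cxcl3 were lost, and 3 of the 64 genes passed in place of 8. Of all genes, 739 then passed in place of 1503. Calls were also lost without control replicate 1 (Ctsg, Mefv, Irak2 and Cxcl3), control replicate 2 (Txnip and Mefv) and control replicate 3 (Txnip, Mefv and Cxcl3). The number of calls was 4 without control replicate 1, 5 without control replicate 3 and 14 without DB2313 replicate 3. These fits called 846, 854 and 2408 of all genes.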

How the data were processed

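RNA-seq was performed on 3 control and 3 DB2313-treated libraries. The deposited values are unnormalised read counts of each gene, with a column per library. The processing notes of the submitters name CASAVA 1.8, HISAT2 2.0.5 and featureCounts 1.5.0-p3, whereas the methods of the study name LifeScope for alignment and counting. The genome build and the strand setting are not given in the sources used here. Against GENCODE M21, 98.33% of the identifiers in common have the same start and end there, the 9 genes included, so coordinates are given as GRCm38. Columns were matched to samples by their prefix, BMDC for control and Spi1 for DB2313, and by their number. A deposited length of each gene, in bp, stands in the same table.

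The counts were tested with edgeR 4.0.16 in R 4.3.3 (TMM, filterByExpr, quasi-likelihood, group as the only term, Benjamini-Hochberg over 14174 genes, threshold 0.05). Fold changes compare DB2313 with control. DESeq2 1.42.0 and limma-voom 3.58.1 were among the alternatives. The study names DESeq2 too, in an older version. The code was tested on simulated data. Log2 ratios of counts (0.5 added to each count before the logarithm) were compared by exact permutation over libraries. The 9 genes, the lists, which were written from general knowledge, and the tests were chosen with earlier results of these data known. Listed symbols absent from the table were matched through RefSeq synonyms (4 genes). Named were the 9 genes, the genes of the lists that passed the test and the 3 genes most like the most counted of the 9. Other genes were named after their values were seen. No molecular identifiers are mentioned, so duplicate reads may be counted. The labels give no batch.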

Additional observations from a re-analysis of the deposited data

How the results depend on the processing

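The 15 alternatives were DESeq2 size factors, library totals, no filter on low counts, a mean of at least 10 counts, DESeq2, limma-voom, robust edgeR, a gene-length offset (lowess, span of 0.3), a replicate block, and leaving out 1 of the 6 libraries at a time. Of 135 values of the 9 genes, 130 kept their direction. Il18 turned to -0.038 with the gene-length offset and ranged from -0.15 to 0.24 when 1 library was left out, where Il1rn ranged from -0.079 to 0.025. Neither passed in any alternative. Il1b and Il18bp passed in all 15, Il1a in 12, and Il1r1 and Il18rap in 10 each. With limma-voom, 1 of the 9 genes was higher. With 1 library left out, 2 to 5 of the 9 genes passed (1 to 2 higher and 1 to 3 lower), as did 3 to 14 of the pathway genes (1 to 5 higher and 2 to 9 lower) and 739 to 2408 of all genes (328 to 1097 higher and 411 to 1311 lower). For the pathway and for all genes, the lowest number arose when DB2313 replicate 2 was omitted, and the highest when replicate 3 of DB2313 was. Over all genes, omitting control replicate 1, 2 or 3 left 846, 796 and 854. The cause was not tested. No difference of a ratio changed sign, without 1 library or with nothing added to the counts.

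Same-numbered libraries did not deviate together, with correlations of deviations from the group means of 0.0035, -0.024 and -0.12. With that block in the fit, 4 of the 9 genes and 1131 of all genes passed, and Il18rap (adjusted p 0.0737) did not.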
